A study of Bos taurus with 6 samples.

Results

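The saline profile is the ordering of genes by microarray signal in granulosa cells of postpartum dairy cows that received physiological saline instead of vitamins. It was taken from the saline channel of 6 two-colour arrays, which gave 6 of the 12 channel readings of the series. Within each reading the gene probes were ranked by background-subtracted signal, with 0 for the dimmest and 100 for the brightest. Ranks were averaged over the 2 dye-swapped arrays of a replicate and then over the 3 replicates. A rank orders the signals of probes, which also differ in how well they bind and label, so it stands for the abundance of a transcript only roughly.

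Control cows received 0.9% saline, and the cows on the other channel 320 mg of folic acid and 10 mg of vitamin B12 into the muscle. In both groups injections ran from before calving until day 57 ± 2 after it. Granulosa cells were aspirated through the vaginal wall 66 ± 2 h after the second of the prostaglandin injections, from preovulatory follicles of 12 mm or more, on day 57 ± 3 or, failing that, day 71 ± 3. The design names 3 biological replicates with 2 technical arrays each, but the labels name neither single cows nor pools, nor which arrays form a replicate. Arrays next to each other on a slide with opposite dyes were taken as a replicate. Replicate 1 lay alone on a slide, and replicates 2 and 3 shared another.

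Granulosa cells form the wall of the ovarian follicle inside its basal lamina and surround the oocyte. Under FSH, and later LH, they turn androgen from the neighbouring theca cells into estradiol by aromatase, and secrete inhibins, activins and follistatin. After the LH surge they stop making estradiol, build an ovulatory protease programme and become progesterone-secreting cells of the corpus luteum.

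Each array held 45220 spots, of which 43794 were gene probes, and the platform annotation gave 15216 named genes through 21790 probes. In the saline channel between 54.0% and 68.8% of gene probes exceeded the negative controls, and that limit fell between ranks 31.2 and 46.0. A gene with several probes took the rank of its brightest one. The probes of the 4034 genes with more than 1 spanned a median of 33.2 rank units. For many named genes where the span exceeded 20 the lowest probe is given. Replicate 1 stood apart from the others. Spearman correlations over all gene probes, given as descriptions, were 0.778 to 0.814 between its readings and the other 4 (8 pairs), against 0.840 to 0.880 between replicates 2 and 3 (4 pairs). The 2 readings within a replicate correlated at 0.849 to 0.872 (3 pairs), so these values do not set replicates 2 and 3 apart from each other. Values are therefore given for each replicate.

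The brightest named genes were those of the cytoskeleton, protein synthesis, glycolysis and protein folding, with 1 granulosa product among them. ACTG1, cytoplasmic gamma-actin, ranked highest, with signals between 50848 and 65203 intensity units and a median of 63798 over the 6 readings. VIM, the intermediate filament vimentin, followed with 45839 to 65135 units (median 62490.5), and LDHA, which turns pyruvate into lactate, came after it with 51461 to 62771 units (median 59236). The highest readings of these genes lay at the top of the scanner's range, where a probe can hardly rise further. Of the summed signal of a saline reading, the 100 brightest probes carried 9.51% to 13.1%, the brightest 1% of probes (437 or 438) 29.4% to 38.3%, and all probes below the median 3.99% to 7.33%.

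Next in order stood PDIA6, a disulfide isomerase of the endoplasmic reticulum (mean rank 99.94). TPT1, the translationally controlled tumour protein (99.93, lowest probe 76.0), and EIF1, an initiation factor (99.92), followed. SERPINE2, protease nexin 1, an inhibitor of plasminogen activators and thrombin that granulosa cells secrete, was number 11 by mean rank, with 45840 to 64952 units (median 58532). The only other members outside the ribosome with a gene symbol of their own were GNAS, the stimulatory G protein subunit through which gonadotrophin receptors act, PABPC1, which binds poly(A) tails, and COX5A of cytochrome oxidase. GNAS had 33014 to 65148 units (median 59214.5), but its lowest probe ranked 57.2. The 9 ribosomal protein genes among the first 30 were RPL12, RPS16, RPS4Y1, RPS21, RPL27A, RPS13, RPS2, RPS29 and RPL27. RPS4Y1 has a near-identical relative in RPS4X, so its signal cannot be assigned to it alone.

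**Figure D1:**
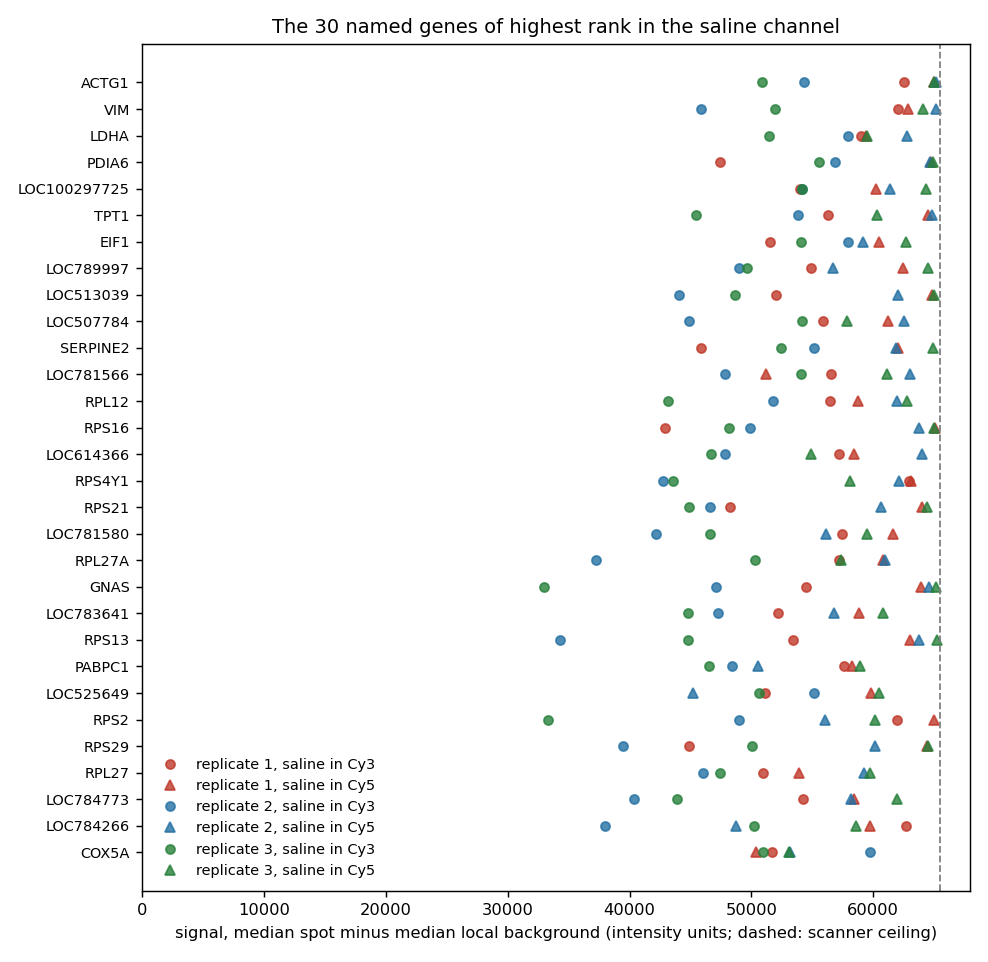
Signal of the 30 named genes of highest mean rank in the 6 saline readings, with intensity (median spot minus median local background) on the horizontal axis and 1 gene per row. Circles are readings with saline in Cy3, triangles readings with saline in Cy5, colours the replicates, and the dashed line the upper limit of the scanner. The Cy5 readings mostly lie to the right, and for ACTG1 the lowest of the 6 values is 50848.

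The remaining 11 of the first 30 carried only LOC identifiers, and 8 of these 11 are pseudogenes in the RefSeq gene table. They included LOC513039 with 44081 to 64994 units (median 57017) and LOC507784 with 44889 to 62577 units (median 56869.5). The same held further down, in a grouping made after the values were seen. Of 204 named genes with the RefSeq type pseudogene, 68 (33.3%) ranked above 95 in each replicate, where 946 of all 15216 named genes (6.22%) did. Their median rank was 88.0, beside 59.2 over 14764 protein-coding genes. A probe for a processed pseudogene can share its sequence with the parent gene, and which transcripts these probes bound was not tested. Of the 100 brightest probes, 26 had no single gene symbol in the annotation and are not described.

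Rank 95 in each replicate, passed by 6.22% of all named genes, is the mark used below for a gene near the top. Just inside it were FLVCR2, whose lowest replicate ranked 95.0014, SBDS at 95.0074 and DYNLT2B at 95.0088, and just outside were STRBP at 94.9934, UBR4 at 94.9774 and RPL11 at 94.9751. The step has no meaning of its own. Replicates 2 and 3 alone put 1179 genes (7.75%) above it. Of the 946 genes, 181 belonged to 1 or more of 29 lists of known function and 93 had only a LOC identifier.

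Among the lists, cytosolic ribosomal proteins stood highest, with a median rank of 99.2 over 68 genes, against 59.4 over all named genes. These proteins form both subunits of the ribosome, and 46 of the 68 were above 95 in each replicate. The replicate medians were 99.2, 99.2 and 99.1, and 67 of 68 genes were above the negative controls in all 6 readings, where 7739 of all named genes (50.9%) were. RPL3L, a form known from striated muscle, was the lowest at a mean rank of 22.7 and was detected in 1 of 6 readings. FAU, which encodes a ubiquitin-like protein fused to a ribosomal protein, stood at 63.0.

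Genes of energy supply came close behind. Respiratory chain and ATP synthase genes, which make the proton gradient and use it, had a median rank of 96.1, with 39 of 82 above 95 in each replicate. ATP5F1A, the alpha subunit of the synthase, had 27441 to 53375 units (median 49085), and COX5B 36599 to 46540 units (median 44171.5). The muscle form COX6A2 (rank 11.0) was not above the negative controls in any reading, while COX6B2 (39.8), known from testis, was in 3 of 6. Glycolysis had a median of 94.8, with 6 of 18 genes above 95: PGAM1 (mean rank 99.5) and TPI1 (99.4) followed LDHA, whereas the neuronal enolase ENO2 (40.1) and the brain aldolase ALDOC (23.0) were lowest. These tissue-specific forms thus lay near or below the level of the negative controls.

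Protein quality control was also high. Heat shock and folding genes had a median rank of 93.1 (8 of 20 above 95 in each replicate) and proteasome subunits of 92.8 (12 of 38). HSPA8, the constitutive heat shock protein 70, had 43517 to 55309 units (median 53334.5), and HSP90AA1 40022 to 56055 units (median 50205.5). PSMA6 (mean rank 99.5), PSMD2 (99.5, lowest probe 38.4) and PSMC5 (99.4) led the proteasome. PSMA8, a subunit of the testis, was at 16.9 and detected in 0 of 6 readings. PSMB8, an inducible subunit of the immunoproteasome, ranked 70.0, 25.4 and 15.1 in replicates 1, 2 and 3. Its value in replicate 1 rests on 1 reading of 277 units, since its spot on the other array was marked as ignored.

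Enzymes against oxidants and of glutathione had a median of 92.7 (9 of 29 above 95 in each replicate). Their leaders were the peroxiredoxins PRDX4 (99.3) and PRDX6 (99.2) and the thioredoxin reductase TXNRD1 (99.2), whose other probe ranked 19.9965. Translation factors had a median of 90.6 (16 of 56), led after EIF1 by the elongation factor EEF1A1 (99.8, lowest probe 76.8) and EIF4G2 (99.8, lowest probe 50.8). Mitochondrial ribosomal proteins had 85.8 (10 of 77), with MRPL53 highest at 99.4 (lowest probe 71.3) and MRPS12 lowest at 30.7, detected in 2 of 6 readings. Housekeeping and cytoskeletal genes had 98.4 (16 of 22). In that list ACTB, beta-actin, ranked 94.5, 81.3 and 84.7, and PFN1, profilin, was lowest at 68.2.

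**Figure D2:**
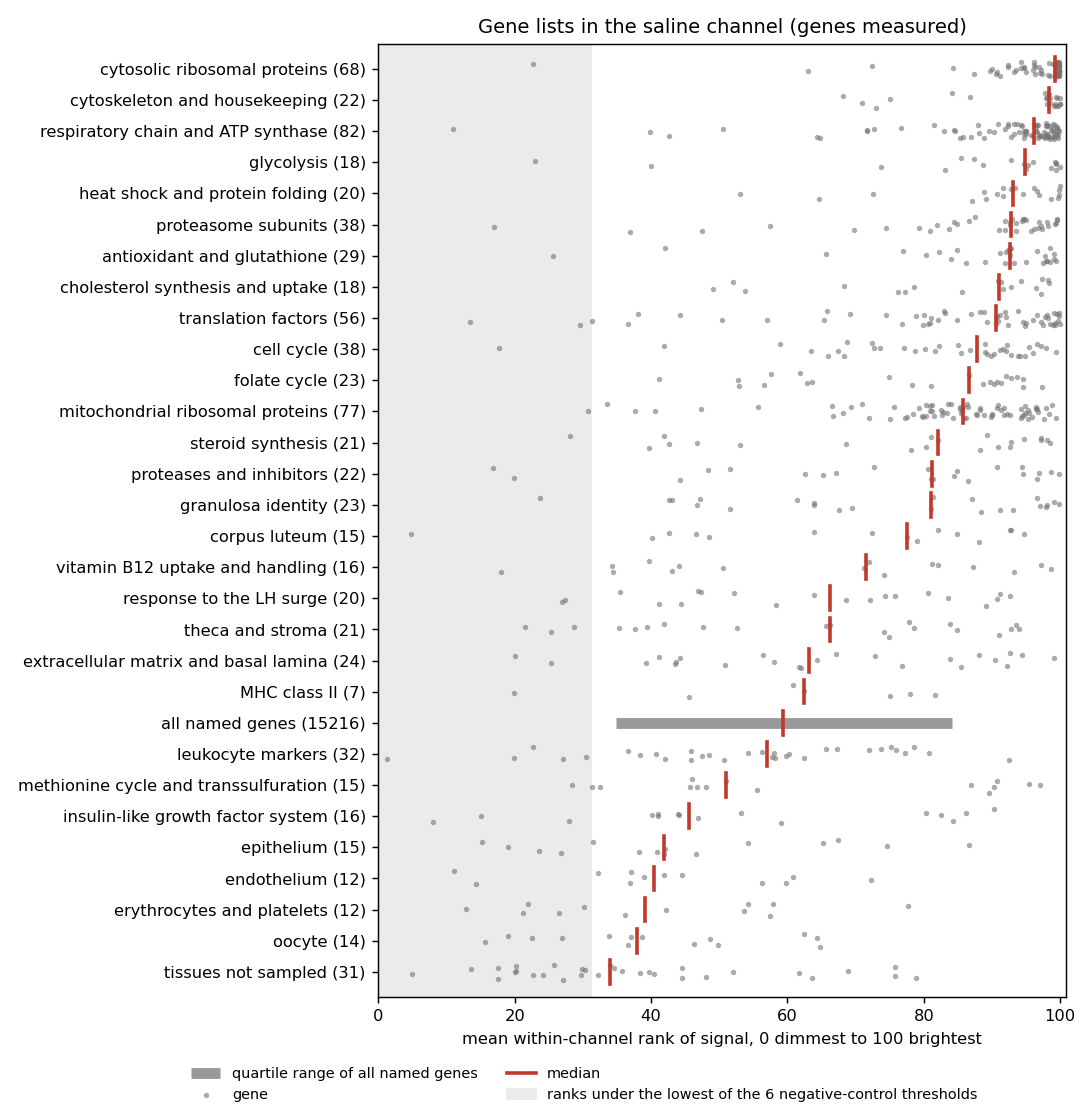
Mean within-channel rank of each gene (points, horizontal axis from 0 to 100) in 29 gene lists, 1 list per row, with the number of genes in parentheses and the list median as a red line. The grey bar spans the quartiles of all 15216 named genes, and the shading covers ranks under 31.2, the lowest of the 6 negative-control limits. The cytosolic ribosomal proteins lie at the top with a median of 99.2 and genes of tissues not sampled at the bottom with 33.9.

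Genes that mark granulosa cells had a median rank of 81.0 over 23 genes. Above 95 in each replicate were 4 of 23 (17.4%), beside 6.22% of all named genes. By replicate the median was 65.0, 88.6 and 84.9, and without replicate 1 it was 86.2. Of the 23, 16 were above the negative controls in all 6 readings, where 50.9% of all named genes were, and 1, FOXL2, was in 0 readings, where 9.79% of all named genes were. The 4 near the top were SERPINE2, GJA1, INHBA and GATA4. GATA6 was not analysed here. In the same replicates the summed signal of 32 leukocyte markers, described further on, was 101019, 6910 and 9291 units, and its part in the granulosa values was not tested. In these bulk samples fewer cells of a type and less RNA per cell cannot be told apart.

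Secreted and junction proteins headed this list. After SERPINE2, GJA1, the gap junction protein connexin 43 that couples granulosa cells, had 12066 to 50979 units (median 29375.5) and ranked 98.3, 99.3 and 99.7 in replicates 1, 2 and 3. INHBA, the subunit of activin A and inhibin A, had 2758 to 64986 units (median 33027) and ranked 95.02, 99.93 and 99.46. INHA, the alpha subunit of both inhibins, had 1620 to 64428 units (median 20586.5) and ranked 92.6, 99.7 and 99.1. For both inhibin subunits the highest readings were close to the scanner's limit and the 2 readings of replicate 1 had the lowest ranks. In each replicate the Cy5 reading of both was brighter than the Cy3 reading. For INHBA in replicate 1 these ranked 98.2 and 91.9, so the Cy3 reading lay below 95. INHBB, the other beta subunit, ranked 65.0, 98.7 and 97.4, and FST, follistatin, which binds activin, 83.3, 99.2 and 96.9. CDH2, N-cadherin, ranked the other way round, at 97.8, 90.7 and 84.9 (lowest probe 33.6).

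Receptors and hormones of the follicle ranged from low to high rank, depending on the gene and the replicate. FSHR, the FSH receptor, had 328 to 1177 units (median 878.5) and ranked 71.7, 85.2 and 87.3. LHCGR, the LH receptor, had 116 to 3212 units (median 492) and ranked 20.8, 93.0 and 77.9. This probe was above the negative controls in the 4 readings of replicates 2 and 3 and not in replicate 1. The dimmer LHCGR probe ranked 38.2, 83.8 and 33.4 and was detected in 3 readings. In replicate 3 the probes thus disagreed, at 77.9 and 33.4, and the presence of LHCGR there is not settled. AMH, the anti-Müllerian hormone, ranked 45.8, 83.1 and 79.4, and its receptor AMHR2 9.3, 66.0 and 66.2. IHH, a hedgehog ligand by which granulosa cells address the theca, was even over replicates at 85.7, 88.6 and 91.0. KITLG, the kit ligand received by the oocyte, stood at 59.4, 66.1 and 58.6.

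CYP19A1, aromatase, was dim in replicate 1 and bright in the others. Its signal was 135 to 16656 units with a median of 12534, and the replicate means were 169, 13261 and 15355 units. Its ranks were 46.2, 98.3 and 98.6 in replicates 1, 2 and 3, with the lowest of 3 probes at a mean rank of 65.5. The 4 readings of replicates 2 and 3 lay far above the 2 of replicate 1, which were just above the negative controls. HSD17B1, which makes estradiol from estrone, was dim throughout, with 120 to 208 units, and ranked 24.6, 64.4 and 51.0.

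Transcription factors of the lineage were spread over the whole scale. GATA4 (95.9, 98.8 and 99.0) and NR5A2, the liver receptor homologue (92.8, 98.2 and 98.9; lowest probe 74.9), ranked highest among them, while NR5A1, steroidogenic factor 1, ranked 62.4, 70.1 and 70.4. NR0B1 (mean rank 51.6), ESR2, the estrogen receptor beta (43.0), and WT1 (42.7) lay near the negative controls, with ESR2 and WT1 detected in 3 of 6 readings each. FOXL2, which maintains granulosa identity in the ovary, had 90 to 173 units (median 119), at a mean rank of 23.7. With 1 probe for FOXL2, a dim probe and a scarce transcript cannot be told apart.

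**Figure D3:**
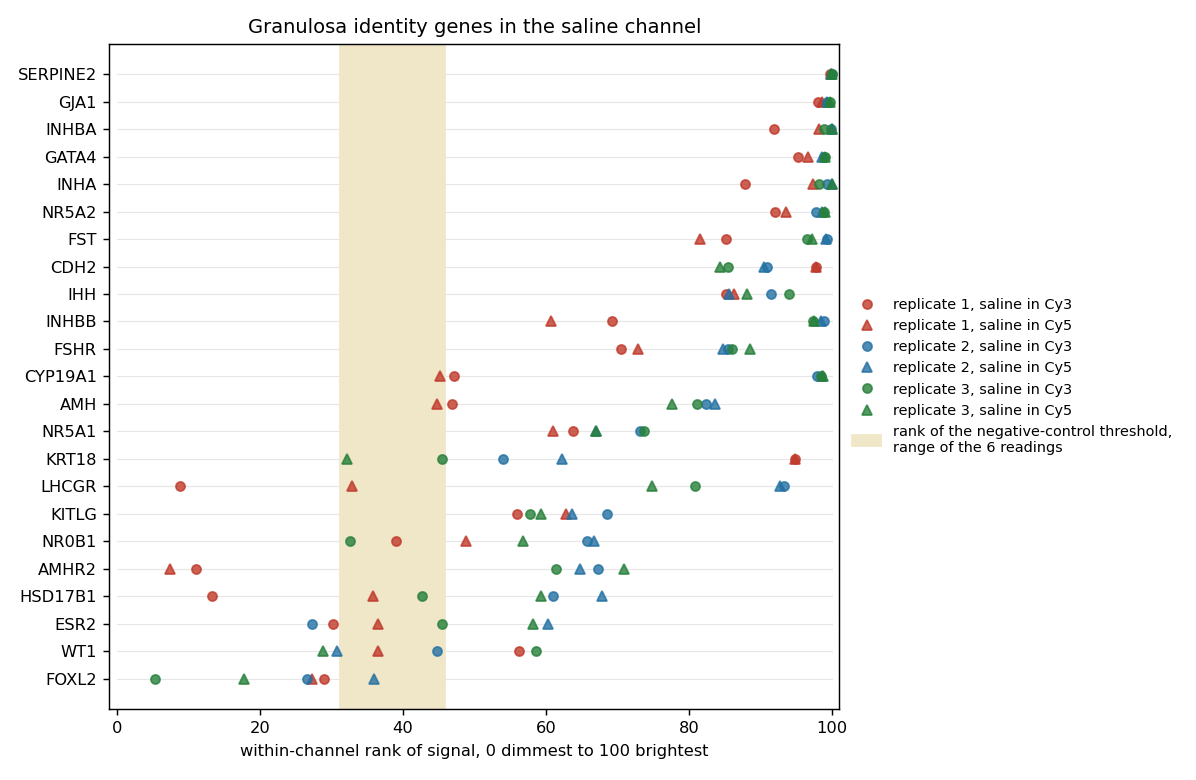
Within-channel rank of 23 granulosa identity genes in the 6 saline readings (horizontal axis, 0 dimmest to 100 brightest), 1 gene per row. Circles are Cy3 and triangles Cy5 readings, colours are replicates, and the shaded band from rank 31.2 to 46.0 is the range of the negative-control limit. CYP19A1 at 46.2 and LHCGR at 20.8 in replicate 1 stand far to the left of their values in replicates 2 and 3.

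Steroid synthesis had a median rank of 82.1 over 21 genes. Above 95 in each replicate were 4 of 21 (19.0%), beside 6.22% of all named genes. These were FDX1, CYB5A (lowest probe 26.1), SOAT1 and ACBD3 (lowest probe 48.2). FDX1, the ferredoxin that feeds electrons to side-chain cleavage, had 5616 to 13191 units (median 7414) and ranked 98.3, 96.2 and 97.1. CYP11A1, the side-chain cleavage enzyme, ranked 91.3, 90.9 and 95.8, and HSD3B1, which makes progesterone, 91.8, 97.9 and 94.3. STAR, which brings cholesterol into mitochondria, had 1188 to 47924 units (median 1962), and its replicate means were 47510, 1218 and 1949 units. So STAR was highest in the replicate in which aromatase was lowest; its lowest probe ranked 52.9. CYP17A1, the androgen-making enzyme of the theca, ranked 38.6, 42.4 and 44.8 and was detected in 4 of 6 readings.

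The enzymes that supply cholesterol (18 measured) reached a median rank of 91.1, or 83.8, 93.3 and 94.1 by replicate. HMGCS1, an early enzyme of the path, had 2820 to 40568 units (median 31986.5) and ranked 93.0, 99.5 and 99.5 (lowest probe 34.4). SREBF2, the transcription factor of the path, ranked 96.4, 99.6 and 99.1 (lowest probe 25.9), and CYP51A1 95.9, 99.2 and 99.4. Above 95 in each replicate were 2 of 18 genes (11.1%), beside 6.22% of all named genes. In replicates 2 and 3 alone 7 of 18 were, beside 7.75% of all named genes. The summed signal of the list was 30652 units in replicate 1, 180603 in replicate 2 and 160846 in replicate 3.

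Matrix and basal lamina genes had a median rank of 63.1, beside 59.4 over all named genes. By replicate the median was 74.0, 67.0 and 54.9, beside 63.7, 60.6 and 60.4 over all named genes. LAMA1, a laminin chain of the basal lamina, was the 1 of 24 above 95 in each replicate, a share close to the 6.22% of all named genes, with 19819 to 33942 units (median 22475.5). COL4A1, a chain of type IV collagen, ranked 92.9, 95.3 and 94.9, and LAMC1 95.02, 91.2 and 91.5 (lowest probe 44.1). DAG1, dystroglycan, and HAPLN1, a link protein of hyaluronan matrices, were lowest at 19.97 and 25.3.

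Proteases and their inhibitors (22 measured) reached a median rank of 81.3, or 94.1, 77.2 and 74.9 by replicate. Besides SERPINE2, the metalloprotease inhibitor TIMP2 was above 95 in each replicate (98.9, 99.1 and 97.9). CSTB, an inhibitor of cathepsins, had 3791 to 60139 units (median 5990.5) and ranked 99.8, 94.6 and 96.3, and CTSD, a lysosomal protease, 99.3, 94.8 and 96.0. The urokinase PLAU (94.9, 43.1 and 63.3), its receptor PLAUR (91.8, 43.3 and 52.6), TIMP1 (97.6, 60.5 and 37.6) and MMP9 (76.3, 29.1 and 27.4) were each more than 20 rank units higher in both readings of replicate 1 than in the other 4. Such a gap, whose size was chosen after the values were seen, was found for 460 of all named genes (3.02%) and for 15 of 32 leukocyte markers. The summed signal of those markers, 101019, 6910 and 9291 units, was highest in the same replicate, and its part in the protease values was not tested.

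Genes that answer the LH surge had a median of 66.2 over 20 genes, or 77.2, 58.9 and 67.5 by replicate. Of these genes 0 were above 95 in each replicate, beside 6.22% of all named genes. TNFAIP6, a hyaluronan-binding protein of the expanding cumulus, had 435 to 24447 units (median 17978) and ranked 80.1, 99.1 and 98.8. The orphan receptor NR4A1 ranked 96.3, 89.7 and 87.5 and the tissue plasminogen activator PLAT 95.9, 91.9 and 84.3. PGR, the progesterone receptor, ranked 78.3, 94.2 and 94.8. PTGS2, the inducible prostaglandin synthase, was low at 27.3 (lowest probe 1.2) and detected in 1 of 6 readings. The transcription factor RUNX1 stood at 26.9, and HAS2, the hyaluronan synthase, at 41.2. VNN1, a vanin that makes pantothenic acid, ranked 99.7, 69.1 and 81.6. Members of this list were thus high or low in different replicates.

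The insulin-like growth factor system was low, at a median of 45.5 over 16 genes. INSR, the insulin receptor, was its highest member at a mean rank of 90.3. IGF2 had 285 to 41269 units (median 1042.5) and ranked 99.2, 73.1 and 86.5, with its lowest probe at 39.3. IGF1 ranked 47.3, 45.7 and 47.8 and was detected in 4 of 6 readings, IGFBP1 stood at 15.0, and IRS1, an adaptor of both receptors, at 8.0. IGFBP5 (87.1, 18.5 and 26.8) and IGFBP3 (66.2, 29.2 and 24.98) had the gap of more than 20 units in favour of replicate 1. They were the 2 of 16 with it, beside 3.02% of all named genes.

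Cell cycle genes were bright in all replicates, with a median of 87.9 over 38 genes (86.0, 86.1 and 90.7). PCNA, the sliding clamp of DNA replication, had 17695 to 55425 units (median 35116) and ranked 98.9, 99.5 and 99.9. The spindle checkpoint kinase BUB1 ranked 97.2, 97.6 and 99.0, and CCND2, the D-type cyclin of FSH-driven granulosa growth in the mouse, 93.3, 99.3 and 99.0. CCND1 was below the negative-control limit in all 6 readings at a mean rank of 17.7. MKI67 was of middle rank (63.5), and PLK1 (42.0, lowest probe 7.5) lay near the negative controls, detected in 3 of 6 readings.

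Enzymes that use the vitamins given to the other cows had widely different ranks in the saline cows. The folate cycle had a median of 86.6 over 23 genes. Of these 1 (4.35%), GCSH, was above 95 in each replicate, beside 6.22% of all named genes. GCSH, GLDC (93.6, 95.3 and 94.6) and SHMT1 (93.3, 96.1 and 94.2) release one-carbon units from glycine and serine, and GCSH ranked 95.9, 98.5 and 97.8. The carrier SLC46A1 (52.7) and the folate receptor FOLR1 (41.1) were lowest. The receptor FOLR2, known from macrophages, ranked 99.3, 72.9 and 87.8, with replicate means of 29911, 286 and 1215 units. The part of the leukocyte markers, whose summed signal was also highest in replicate 1, was not tested.

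In the methionine cycle the median was 51.0 over 15 genes. MAT2B, the regulatory subunit of the enzyme that makes S-adenosylmethionine, ranked 98.8, 95.7 and 96.8 (lowest probe 50.7), and AHCY, which clears S-adenosylhomocysteine, 96.7, 95.7 and 93.9 (lowest probe 41.3). MTR, the methionine synthase that needs vitamin B12, had 97 to 256 units (median 150.5) at ranks of 45.7, 50.6 and 41.7, and its reductase MTRR ranked 48.5, 46.0 and 45.5 (lowest probe 16.4). CBS (28.4) and the liver enzyme MAT1A (31.3) were lowest. MTR thus lay at the level where the negative controls end.

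Vitamin B12 uptake and handling had a median of 71.6 over 16 genes. Of these 2 (12.5%) were above 95 in each replicate, beside 6.22% of all named genes. PCCB, a subunit of propionyl-CoA carboxylase, whose product leads to the B12-dependent mutase, ranked 98.3, 99.1 and 98.6 (lowest probe 15.2). MMADHC, which directs the vitamin to its enzymes, ranked 97.98, 97.3 and 96.5, but the lowest of its 4 probes stood at 6.4. ABCD4, a lysosomal transporter of the vitamin, ranked 92.9, 93.4 and 93.6, with a lowest probe at 15.1. The carrier TCN2 (43.0), the cell surface receptor CD320 (39.7) and the processing enzyme MMACHC (44.1) ranked near the negative controls. The binding protein TCN1 and the receptor subunit AMN were lowest, at 34.3 and 18.0.

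Markers of other cell types were read on the same scale. Theca and stroma had a median of 66.2 over 21 genes, led by LUM, the matrix protein lumican (94.8, 88.6 and 98.5), and ACTA2, smooth muscle actin (97.2, 93.0 and 90.3). STAR belongs to this list too. The defining theca genes INSL3 (47.6) and CYP17A1 (41.9) lay near the negative controls, and GLI1 and COL6A1, at 21.5 and 25.2, were detected in 0 of 6 readings. Endothelium had a median of 40.4 over 12 genes and erythrocytes and platelets 39.1 over 12. By replicate the endothelial median was 58.7, 38.04 and 35.6. Of the 12 genes, 3 (KDR, EMCN and VWF) had both readings of replicate 1 more than 20 rank units above the other 4. Of all named genes 3.02% did. The junction protein CLDN5 (72.2), ESAM (60.9) and EGFL7 (59.8) exceeded the negative controls in all 6 readings, with at most 471 units. PECAM1 (11.0) and FLT1 (14.3), which also mark endothelium, did so in 0 of 6. HBA, the alpha globin, reached 77.7, and the platelet chemokine PPBP ranked 90.3, 18.1 and 18.0.

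Epithelial markers had a median of 41.9 over 15 genes, but KRT8, a keratin of simple epithelia, had 251 to 59701 units (median 825) with replicate means of 58088, 437 and 766 units. KRT19 (96.4, 56.2 and 71.0), KRT18 (94.9, 58.1 and 38.9), which was counted with the granulosa genes, and EPCAM (87.8, 14.2 and 20.5) were likewise highest in replicate 1, while CDH1 and MUC1 were detected in 0 of 6 readings. Oocyte genes had a median of 37.9 over 14 genes. GDF9, a defining oocyte factor, was detected in 0 of 6 readings, whereas BMP15 (64.8) and FIGLA (64.4) exceeded the negative controls in all 6 with at most 388 units. Genes of the corpus luteum had 77.5 over 15 genes, where HSD3B1, STAR and CYP11A1 are shared with steroid synthesis and PRLR was lowest at 4.8. RGN, regucalcin, ranked 52.9, 90.2 and 89.5, and EDN2, an endothelin of the ovulating follicle, 86.5, 24.1 and 34.8.

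Leukocyte markers varied more than any other list between the replicates. Their median rank was 57.0 over 32 genes, with 81.9, 31.9 and 51.7 in replicates 1, 2 and 3, and 44.0 without replicate 1. Their summed signal was 101019 units in replicate 1, 6910 in replicate 2 and 9291 in replicate 3. Of these units GZMB, whose other probe ranked 13.7, alone gave 3348, 3191 and 1791. The part of these markers in other values that were highest in replicate 1, such as those of STAR, VNN1, IGF2, IGFBP5, KRT8 and the endothelial genes, was not tested. Of the 32 genes, 0 were above 95 in each replicate, beside 6.22% of all named genes. In replicate 1, 15 of 32 had both readings more than 20 rank units above the other 4, against 3.02% of all named genes, and in replicate 2, 5 of 32 had both readings as far below the others, against 0.605%. Many of these markers are known from macrophages and monocytes. CD163, a scavenger receptor of macrophages, had replicate means of 13335, 134 and 296 units, and TYROBP, a signalling adaptor of myeloid cells, 10980, 105 and 322 units. CSF1R, the receptor of the macrophage growth factor, ranked 71.5, 3.7 and 5.9, and the T cell gene CD3D 78.7, 18.6 and 40.3. CD53, a tetraspanin of leukocytes, ranked 98.8, 56.5 and 80.5 (other probe 46.3), and C1QB, a complement chain made by macrophages, 97.3, 63.4 and 81.7.

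PTPRC, the pan-leukocyte antigen, ranked 87.4, 72.0 and 72.5 (lower probe 6.8). GZMB, granzyme B, was the highest of the list and even over replicates at 93.5, 93.6 and 90.3, although its other probe ranked 13.7. CD79A of B cells (19.8) and ITGAM (1.3) were detected in 0 of 6 readings. ITGAM is also known from macrophages and monocytes, but its 1 probe ranked 1.6, 1.8 and 0.6 and so was not high in replicate 1. MHC class II genes, of which CD74 is also a leukocyte marker, were likewise highest in replicate 1, with medians of 87.9, 51.5 and 47.9 over 7 genes. BOLA-DMB, which helps load peptides, ranked 96.5, 62.6 and 85.7, and BOLA-DQA1 was lowest at 19.8 and detected in 0 of 6 readings. BOLA-DRA had 97 to 25798 units (median 1506.5) and ranked 99.1, 45.6 and 89.2. BOLA-DQB ranked 96.4, 61.2 and 67.5.

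**Figure D4:**
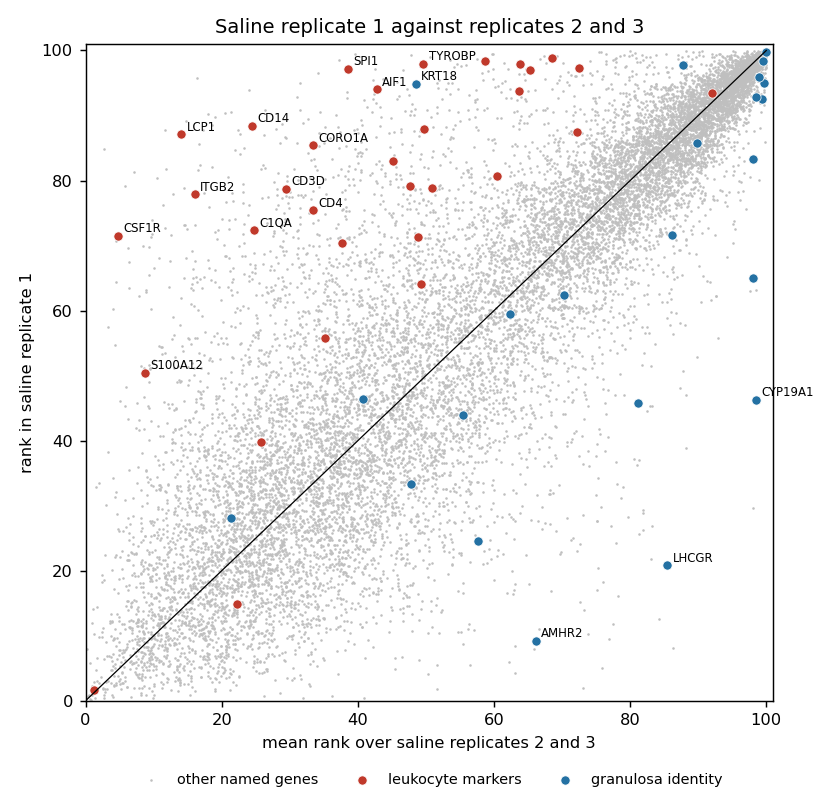
Rank of each named gene in saline replicate 1 (vertical axis) against its mean rank in replicates 2 and 3 (horizontal axis), both from 0 to 100, with equality as the line. Red points are 32 leukocyte markers, blue points 23 granulosa identity genes, and genes more than 40 units off the line are named. CSF1R at 71.5 lies high on the left and CYP19A1 at 46.2 low on the right.

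Replicate 1 differed in both directions. Both its readings were more than 20 rank units above the other 4 for 460 named genes (3.02%) and as far below them for 143 (0.94%). In all these counts a gene with a spot marked as ignored was judged on the readings left. For replicate 2 the counts were 21 (0.138%) above and 92 (0.605%) below, and for replicate 3 they were 23 (0.151%) above and 46 (0.302%) below. Of the 23 granulosa genes, 5 were below in replicate 1 (CYP19A1, INHBB, LHCGR, AMH and AMHR2) and 1 above (KRT18). For LHCGR this held only for the brighter probe, since the other ranked 38.2 in replicate 1 and 33.4 in replicate 3. The gap cannot be reached by a gene near rank 100 in the other replicates unless it falls far, nor by one that is high in a second replicate. Replicate 1 is the only one on its slide, so replicate and slide cannot be told apart from the saline channel alone. On the 2 arrays of replicate 1 the leukocyte markers had a median rank of 81.9 in the saline channel, beside 49.0 in the vitamin channel. The granulosa genes had 65.0 in the saline channel of these arrays, beside 89.0 in the vitamin channel, and neither difference was tested.

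Range over the replicates was compared among genes detected in both readings of at least 1 replicate. Their readings within each replicate also had to differ by less than that range divided by 4. Of 1518 such named genes, the 12 with the widest range were all highest in replicate 1. COL12A1, CAPG, VSTM1 and MEGF10 met the detection condition through replicate 1 alone. CARTPT, a neuropeptide precursor that bovine granulosa cells can make, ranked 99.4, 13.1 and 66.1, with replicate means of 34281, 91.7 and 241 units. SPP1, osteopontin, ranked 99.4, 12.8 and 82.8 (other probe 36.8), with 74 to 40049 units and a median of 701.5. Both were among the brightest genes of 1 replicate and below the negative-control limit in replicate 2. ALDH1A1, which makes retinoic acid, ranked 94.98, 6.47 and 56.63 (other probe 28.7), and COL12A1, a fibril-associated collagen, 84.9, 3.5 and 1.8.

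Several of the others are known from myeloid cells. CLEC4A, a lectin receptor, ranked 93.7, 3.3 and 73.6, SPI1, the transcription factor PU.1, 97.2, 14.8 and 62.3, and AIF1 94.0, 12.3 and 73.3. The actin-capping protein CAPG ranked 95.7, 17.9 and 14.8 and the haematopoietic protein HCLS1 97.2, 15.8 and 69.1 (lowest probe 38.5). The cytokine IL18 ranked 95.4, 10.1 and 74.3 (other probe 34.7), VSTM1 87.8, 3.6 and 19.7, and MEGF10 88.6, 5.5 and 31.5. COL12A1, VSTM1, MEGF10 and CAPG were low in both replicates 2 and 3, whereas the others lay in between in replicate 3.

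**Figure D5:**
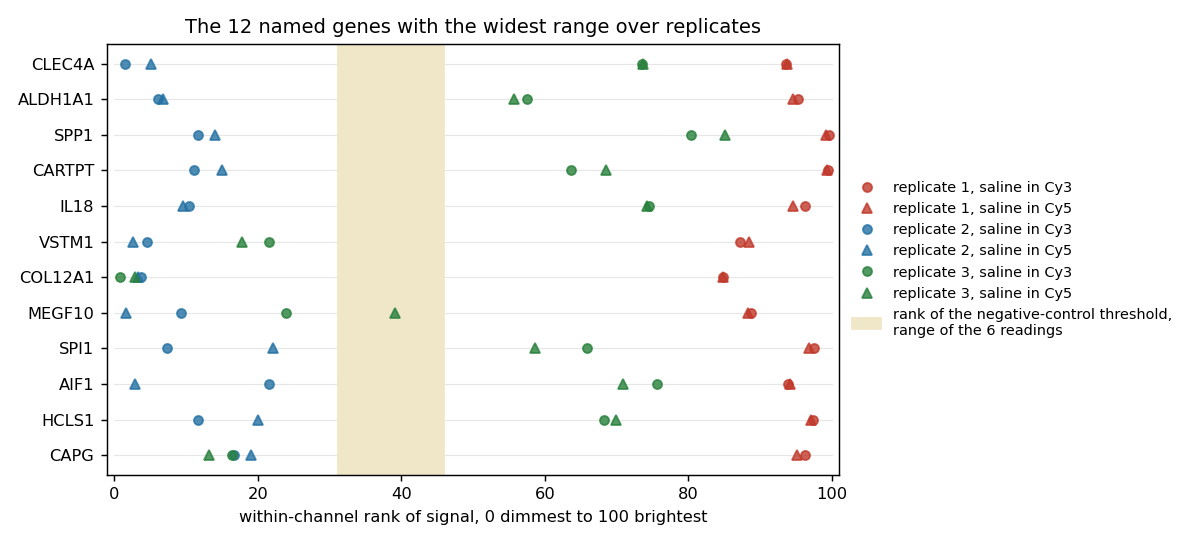
Within-channel rank in the 6 saline readings (horizontal axis, 0 dimmest to 100 brightest) of the 12 named genes with the widest range over replicates, 1 gene per row. Circles are Cy3 and triangles Cy5 readings, colours are replicates, and the band from rank 31.2 to 46.0 is the negative-control limit. For CARTPT the readings of replicate 1 lie at 99.4, those of replicate 2 near 13.1.

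At the low end stood genes of tissues that were not sampled. Their median rank was 33.9 over 31 genes, within the range of the negative-control limit, and 5 of 31 were detected in no reading, where 1490 of all named genes (9.79%) were. INS, insulin, had 51 to 125 units (mean rank 4.9) and LALBA, a milk protein, 75 to 145 units (13.6). However, 6 of 31 exceeded the negative controls in all 6 readings, where 7739 of all named genes (50.9%) did. FGB, a fibrinogen chain made by liver, ranked 74.7, 80.1 and 81.5, but another of its 4 probes stood at 8.4. The hormone precursor POMC had 242 to 599 units at a mean rank of 75.8, and SNAP25 of the synapse 308 to 487 units at 75.8. Hence a middle rank here corresponds to signals of this size and does not by itself show that a transcript was present.

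Set beside the vitamin channel of the same arrays, the saline profile had much the same order at the top. The 100 named genes of highest rank in saline shared 79 with the 100 of the vitamin channel. Spearman correlations of saline and vitamin readings on 1 array were 0.836 to 0.886 over the gene probes (6 arrays), where the points share the array and its spots but not the dye. Between the dyes, the median absolute difference of a gene's rank in saline, Cy5 minus Cy3, was 2.90 units.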

How the data were processed

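The deposited scanner files of 6 two-colour Agilent arrays give, per the file headers, the median intensity of each spot and of its local background at 2 wavelengths. Per the labels' protocols, RNA was amplified in 2 rounds of T7 transcription and labelled at guanine with Cy3 or Cy5, so signals also depend on the 3′ ends and base composition of the probes. The sources used here name neither scanner nor image program. The authors' table of processed ratios was not used, since it holds no level of 1 channel. Treatment and dye of each channel were taken from the labels.

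Spots marked as ignored (2 to 70 gene probes per array) and control spots were left out. Background-subtracted saline signals were ranked over the gene probes of each reading with Python 3.11.15 and pandas 2.3.3, and averaged over 2 arrays and then 3 replicates. A probe was detected above the mean plus 2 SD of the 153 negative controls on the same array in the same channel. At most 14 gene probes per saline reading were saturated (65000 units or more), and they were kept. Symbols came from the platform annotation (20025 current, 1524 updated and 241 kept as old, by RefSeq, assembly ARS-UCD2.0); 22004 probes had none. Replicate signals are geometric means of 2 readings.

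Genes were drawn from a rule: the 30 of highest rank, the 3 highest and 2 lowest of each list, all granulosa genes, and the 12 of widest range. Not all of these are described. Others named were chosen after their values were seen. Members and lists were chosen with earlier results of these data known. There is no contrast within the saline channel, so no test was made, and replicates are given singly. The number of arrays limits the precision. Ranking was tested on simulated data. Alternatives in background, probe choice, dye, filter, averaging and replicates, among them limma 3.58.1 normexp (offset 50), were run.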

Additional observations from a re-analysis of the deposited data

Results flagged for a closer look

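The median rank of the vitamin B12 uptake and handling genes in 1 reading, saline in Cy3 on an array of replicate 1, was 63.1, where the other 5 readings gave 71.8 to 74.5. The gap took up 0.762 of the whole range of the 6 readings. Of 30 medians examined in this way it was the 1 that stood apart, and chance alone sets apart about 1 in 20 such groups.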

How the results depend on the processing

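With the median over the probes of a gene in place of the brightest probe, 565 genes were above rank 95 in each replicate, against 946, because dim probes then count. Leaving out 1 replicate gave 996 to 1180 such genes, and medians of 72.4 to 86.2 for the granulosa genes, 44.0 to 64.7 for the leukocyte markers and 31.6 to 36.6 for tissues not sampled. The median of tissues not sampled, 33.9 as reported, was 30.3 with the median over probes, 38.3 with saline in Cy5 only, 29.0 with saline in Cy3 only, 27.5 over probes detected in at least 1 reading and 30.7 as the median of 6 readings; the cause was not tested. The count of genes higher in replicate 1, 460 with a gap of 20 units, was 1002 with 10 and 204 with 30 (both chosen after seeing the data), and that of leukocyte markers, 15, was 24 and 8. Of 192 named genes, 34 moved by more than 10 units with the median over probes, MMADHC most, by 68.1; the 30 highest kept 22 members under that setting and 21 without replicate 1. Normexp left all 192 ranks as they were, since it preserves the order of the background-subtracted signals within a reading. No paired analysis was possible because no result comes from a test between groups.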
